A study of Mus musculus with 15 samples.

Results

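Single-exon transcripts lying inside introns were collected from the transcript assemblies of 15 mouse RNA-seq libraries. A transcript was taken when it had 1 exon of at least 200 bp, lay wholly inside the body of a protein-coding gene of the GENCODE M21 annotation of mm10, and touched no annotated exon of any gene. Of 326131 single-exon transcripts among 835496 in all, 113216 (34.7%) met these conditions, and merging the overlapping ones over the libraries gave 42794 loci. The gene around a locus is called its host. Another 73485 single-exon transcripts of that length lay outside genes and 125905 lay on annotated exons.

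All mice were C57BL/6. The 5 groups, of 3 libraries each, were healthy brain, untreated GL261 tumors (a mouse glioma line implanted in these mice), and GL261 tumors of mice given 50, 100 or 200 µg of antibody B20.4.1.1. The antibody blocks VEGF-A, which drives vessel growth. The first dose came on day 10 after the cells were implanted, with another every 3 days until the end point. Mice were perfused with saline before the tissue was frozen and each group was described as individual samples, with nothing said of pooling or of the tumor's margin. P-values therefore measure the spread between these samples. The agent entry in the labels named another dose than the title for 3 tumor libraries. It gave 50 µg for untreated replicate 3, 100 µg for replicate 3 titled 50 µg and 200 µg for replicate 3 titled 100 µg. Replicate 3 titled 200 µg was the only treated library whose agent entry gave no dose. Titles were followed, so the dose of these libraries is uncertain. Where results are grouped by the agent entry, a library without a dose in it kept the group of its title.

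A gene is copied into RNA whole, and its introns are then cut out and mostly degraded. Reads inside introns can come from RNA not yet spliced, from introns kept in a finished transcript, from an unannotated exon or a separate short gene, from the antisense strand or from genomic DNA. Genes for synaptic adhesion and ion channels are among the longest in the mouse genome and are read mainly in neurons, so neurons carry much unspliced sequence. GL261 tumors hold tumor cells, immune cells that entered from the blood, vessels and some surrounding brain.

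A few loci overlapped an annotated promoter. Of 32851 promoter windows in RefSeq's GRCm38.p6 table, each running from 250 bases before to 50 after a gene's start, 319 (0.971%) met a locus. The following 3 are printed because each window lies at least in part inside a locus that was assembled in 11 libraries or more, and the letters show how much of it the locus takes up. Only the first of these loci covers the gene's start, and the others end before it. They were chosen after their values were seen. Capitals mark the bases inside the locus. The Gm34755 window (chr6:128798459-128798758, + strand) lies wholly inside a locus in an intron of Gm44511. The Abraxas2 window (chr7:132858975-132859274, + strand) has 197 of its bases in a locus in an intron of the long Fgfr2 model. For Nr4a1, an immediate early transcription factor, 161 bases of the window (chr15:101266596-101266895, + strand) lie at the end of a locus in an intron of the gene's longest model, which runs from 101258788 to 101266756.
Gm34755: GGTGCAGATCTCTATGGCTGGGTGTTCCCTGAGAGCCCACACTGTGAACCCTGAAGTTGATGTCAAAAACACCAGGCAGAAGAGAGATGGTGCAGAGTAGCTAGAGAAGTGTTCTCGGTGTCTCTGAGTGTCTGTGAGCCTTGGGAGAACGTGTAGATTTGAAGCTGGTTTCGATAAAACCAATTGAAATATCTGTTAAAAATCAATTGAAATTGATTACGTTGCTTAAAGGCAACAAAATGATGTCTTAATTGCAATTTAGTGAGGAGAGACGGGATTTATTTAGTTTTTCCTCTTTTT
Abraxas2: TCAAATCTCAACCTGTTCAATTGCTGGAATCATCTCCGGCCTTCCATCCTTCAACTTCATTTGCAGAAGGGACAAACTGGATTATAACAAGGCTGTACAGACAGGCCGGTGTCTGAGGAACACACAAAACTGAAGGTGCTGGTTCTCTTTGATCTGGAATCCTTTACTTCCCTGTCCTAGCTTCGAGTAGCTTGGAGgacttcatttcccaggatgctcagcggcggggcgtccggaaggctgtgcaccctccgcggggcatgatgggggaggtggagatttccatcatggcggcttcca
Nr4a1: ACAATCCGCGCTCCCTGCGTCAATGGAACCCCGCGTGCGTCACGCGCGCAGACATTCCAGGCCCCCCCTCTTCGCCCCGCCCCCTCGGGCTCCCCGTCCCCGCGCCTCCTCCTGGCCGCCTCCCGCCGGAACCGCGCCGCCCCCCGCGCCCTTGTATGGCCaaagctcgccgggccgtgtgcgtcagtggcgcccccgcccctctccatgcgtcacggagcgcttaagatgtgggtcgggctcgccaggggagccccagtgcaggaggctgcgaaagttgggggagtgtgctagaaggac
Each window was searched on both strands for 3 promoter motifs that do not overlap one another. The TATA box, TATAAA, was in none of these windows and in 13.6% of all windows. The CCAAT box was in the Gm34755 window only, against 37.4% of all windows. The GC box, GGGCGG, was in the Nr4a1 window only, against 35.7% of all windows. The letters do not show that a factor binds there, and their absence in a window says nothing of one.

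Healthy brain carried the most intronic sequence of any group, but its libraries differed widely. The total length covered was 8599, 9975 and 18626 kb in the brain libraries and 1645, 1772 and 2211 kb in untreated tumor. The groups did not overlap. Means were 12400 ± 5435 kb (SD, n = 3) and 1876 ± 297 kb (SD, n = 3), a ratio of 6.61 (exact two-sided permutation p = 0.1, the smallest that 3 against 3 libraries allow; adjusted p = 0.225 over 18 library comparisons). Against all 12 tumor libraries, whose mean was 3391 kb, brain was 3.66 times higher and the ranges overlapped (exact permutation p = 0.00879, adjusted p = 0.0989). In bulk tissue, fewer cells of a type and less RNA per cell cannot be told apart.

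The number of members followed the same order. There were 20230, 14034 and 19132 in brain and 2387, 2505 and 3010 in untreated tumor. Single-exon transcripts outside genes were less uneven, so brain had 2.76 members for each of them on average, untreated tumor 0.811 and the 200 µg group 0.438. A measure of depth was taken as the ratio of the deposited coverage to FPKM, which was the same for all transcripts of a library. It was 7.78, 6.10 and 22.1 in brain, 6.94 to 7.37 in untreated tumor, 7.15 to 8.42 at 50 µg, 8.90 to 9.23 at 100 µg and 9.45 to 13.2 at 200 µg. The part of depth in the number of members was not tested.

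Among the treated tumors, 2 libraries stood apart from the rest. Covered length was 2623, 3073 and 13529 kb at 50 µg, 2936, 6738 and 1128 kb at 100 µg, and 1763, 1902 and 1377 kb at 200 µg. Replicate 3 at 50 µg, with 24464 members, had more than any brain library, and replicate 2 at 100 µg had 9654. Replicate 3 at 100 µg had the fewest of all, 937. The 50 µg group lay above untreated tumor in all 3 libraries (mean 6408 against 1876 kb, exact permutation p = 0.1, adjusted p = 0.225). At 200 µg the covered length overlapped that of untreated tumor (1681 ± 272 kb, SD, n = 3; exact permutation p = 0.5), while the number of members did not (mean 1547 against 2634, exact permutation p = 0.1, adjusted p = 0.225). Over all 9 treated libraries covered length averaged 3896 kb (exact permutation p = 0.418 against untreated tumor).

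**Figure D1:**
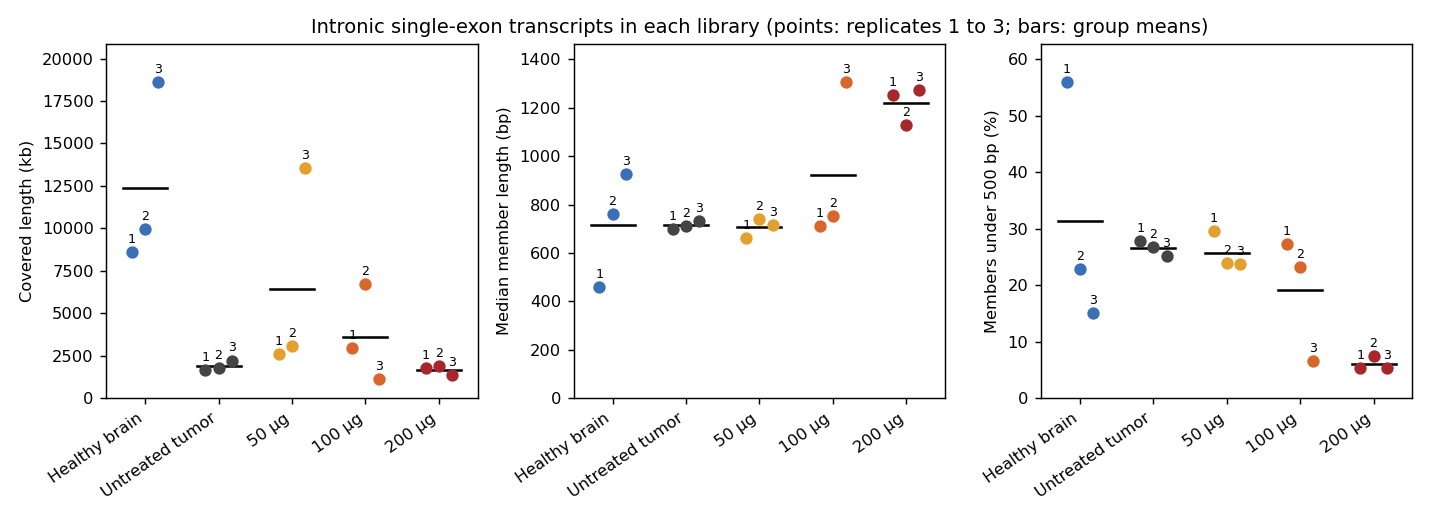
Intronic single-exon transcripts in each of the 15 libraries, by group, with 1 point a library and a bar at the group mean. The brain libraries cover 8599 to 18626 kb and the untreated tumors 1645 to 2211 kb, and replicate 3 at 50 µg, at 13529 kb, lies among the brain libraries.

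Loci were short. Their median length was 687 bp, with 5% under 270 bp and 5% over 2980 bp, 13333 were at least 1 kb long, 740 at least 5 kb, and the longest was 32139 bp. FPKM, fragments per kilobase of transcript scaled to library size, depended on length. Intronic pieces of 150 to 199 bp, just under the length limit, numbered 459 with a median of 322 FPKM, while the 2030 of 200 to 249 bp, just inside it, had a median of 51.3 FPKM. At 250 to 299 bp the median was 16.3 FPKM, and for the 33996 of at least 1 kb it was 0.891 FPKM.

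Short pieces were unevenly spread over the libraries. Members under 500 bp made up 56.0%, 22.9% and 15.03% of the brain libraries, 25.2% to 27.9% of the untreated tumors and 5.24% to 7.36% of the 200 µg tumors. Brain replicate 1 held 70.5% of all pieces of 200 to 249 bp. Median FPKM followed suit: 3.26, 1.97 and 0.569 in brain, 1.72 to 1.82 in untreated tumor, 1.64 to 2.24 at 50 µg, 0.834 to 1.44 at 100 µg and 0.634 to 0.791 at 200 µg. Comparisons of level between groups below carry this difference in piece length, whose part in them was not tested beyond the length alternative given in the closing section.

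Most loci were private to a library. Of the 42794, 29534 (69.0%) were assembled in 1 library, 15.2% in 3 or more, 312 in 10 or more and 18 in all 15. In brain 25406 loci were seen and 2069 of them (8.14%) in all 3 libraries. Untreated tumor had 3862 loci, with 334 (8.65%) in all 3. The share in all 3 was 2.78% at 50 µg, 2.42% at 100 µg and 14.2% at 200 µg. Brain and untreated tumor shared 1473 loci, 5.80% of the brain loci and 38.1% of the tumor loci. Brain alone held 19827 loci, 1218 of them in all 3 libraries, tumors alone held 17388, and 5579 were in both. Replicate 3 at 50 µg had 15399 loci, and 61.2% of them were in no other library.

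The loci fell in 8953 of 21951 protein-coding genes (40.8%), 6378 in brain and 2312 in untreated tumor. Only 3.25% of loci had more than 1 host. The nearest annotated exon was 1625 bp away at the median, with 11.1% of loci within 100 bp of an exon and 58.2% over 1 kb from one. RefSeq placed a pseudogene over 0.566% of the loci and a long noncoding RNA over 5.58%.

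Hosts were long genes, and more so in brain. The median length of a host was 48.9 kb in brain and 42.5 kb in untreated tumor, against 17.4 kb for all protein-coding genes. The intron that held a locus was 15.7 kb long at the median in brain and 5.32 kb in untreated tumor. Of genes with under 5 kb of intron, 4.15% were hosts in brain and 1.58% in untreated tumor. With 200 kb of intron or more, 81.5% were hosts in brain and 25.7% in untreated tumor. The share rose at each step of intron length in both groups, and between 50 and 200 kb of intron it was nearly flat in untreated tumor (19.2% and 19.3%) while it went from 55.1% to 65.2% in brain.

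**Figure D2:**
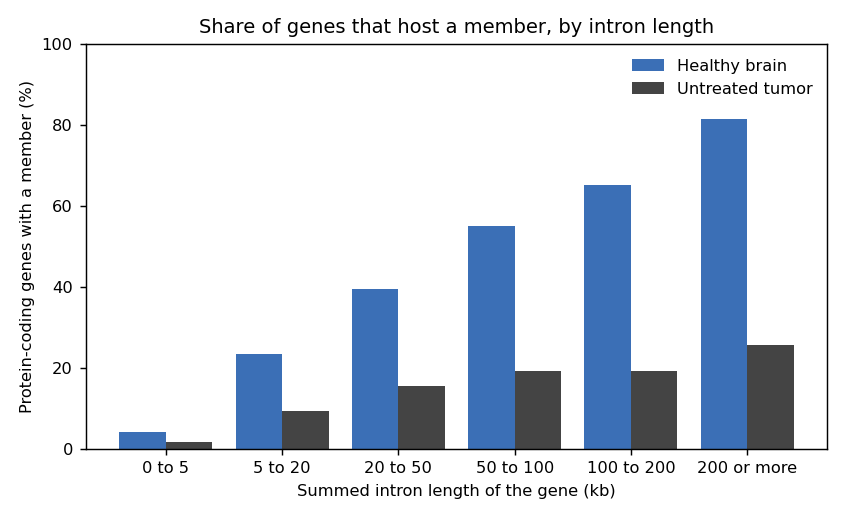
Share of protein-coding genes that held at least 1 intronic single-exon transcript, by the gene's total intron length, for loci seen in brain and in untreated tumor. Brain climbs from 4.15% to 81.5% and untreated tumor from 1.58% to 25.7%.

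Position along the host varied between libraries. In brain 17.7% of loci lay in the 20% of the host nearest its start and 23.7% in the 20% nearest its end, and in untreated tumor the shares were 16.5% and 26.7%. In replicate 3 at 50 µg the order was turned, at 22.6% near the start and 15.4% near the end, and its loci sat in introns of 16.5 kb at the median, closer to brain than to untreated tumor. The first intron held 15.7% of brain loci and 17.5% of untreated tumor loci.

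The 8 hosts with the most loci carried from 117 to 228 each. Ptprd, a receptor phosphatase of the synapse, carried 228 loci, 227 of them seen in brain. Lsamp, a neuronal adhesion protein, carried 155, Kcnip4, a partner of A-type potassium channels, 148, and Dlg2, a postsynaptic scaffold, 128. Nkain2, a partner of the sodium pump, also had 128, followed by Macrod2, an ADP-ribose hydrolase, with 121, Csmd1, a complement regulator of the brain, with 120 and Lrrtm4, a synaptic adhesion protein, with 117.

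To compare hosts, FPKM times length in kb was summed over the members of each gene that had no other host, giving FPM, a library-scaled number of fragments per gene. This sum grows with intron length, so it is compared between groups for 1 gene and not between genes. In untreated tumor against brain, 4639 hosts were tested with limma and 897 were called at an adjusted p under 0.05 (19.3% of those tested), 62 higher (1.34%) and 835 lower (18%) in tumor. The median difference over all tested hosts was -1.62 on the log2(FPM + 0.5) scale, so a host at that value only followed the bulk. Forcing the libraries to 1 distribution moved that median to -0.27 and the calls to 212 higher and 291 lower, so the split between directions rests on the scaling. Leaving out an untreated tumor library gave 280 to 307 calls, and leaving out brain replicate 3 gave 1600.

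The largest falls were called in Ptprd, Kcnip4 and Csmd1. Ptprd stood at 961, 1077 and 686 FPM in the brain libraries and was listed at 0 in all 3 untreated tumors (-10.80 ± 0.65, log2 difference ± SE, limma adjusted p = 0.000518). Kcnip4 stood at 487, 431 and 401 FPM and Csmd1 at 398, 328 and 338 FPM, both listed at 0 in untreated tumor (limma adjusted p = 0.000518 for each). Where a group is listed at 0, the fitted difference is set by the pseudocount and is no bound. Between brain and untreated tumor, such a host or locus reaches the mean level for testing only through the other group. The group at 0 adds no spread, so here and below the p-values for its members do not measure the spread of both groups. Such calls, 709 of the 835 lower and 47 of the 62 higher hosts, describe the data and are no independent test.

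Other adhesion and scaffold genes behaved alike. Nrxn3, a presynaptic neurexin, was at 386, 382 and 186 FPM, Dlg2 at 341, 332 and 214 FPM, and Pcdh9, a protocadherin, at 379, 288 and 306 FPM in brain, each listed at 0 in the untreated tumors and each called. Lsamp was at 311, 302 and 242 FPM in brain and at 0 in untreated tumor, but replicate 3 at 50 µg showed 53.3 FPM. Celf2, an RNA-binding protein also made in immune cells, was at 321, 408 and 183 FPM against 4.15, 0 and 0 FPM (-8.10, limma adjusted p = 0.00234). Brain and tumor values did not overlap for any of these.

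Not every host with many loci fell to 0. Macrod2 kept 9.22, 4.11 and 2.75 FPM in untreated tumor against 72.8, 80.0 and 62.9 FPM in brain (-3.78, limma adjusted p = 0.0118). Nkain2 was at 327, 418 and 247 FPM in brain and 66.1, 79.2 and 97.4 FPM in untreated tumor. The groups did not overlap, but the difference of -2.01 was near the median of all hosts and missed the threshold (limma adjusted p = 0.0750).

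**Figure D3:**
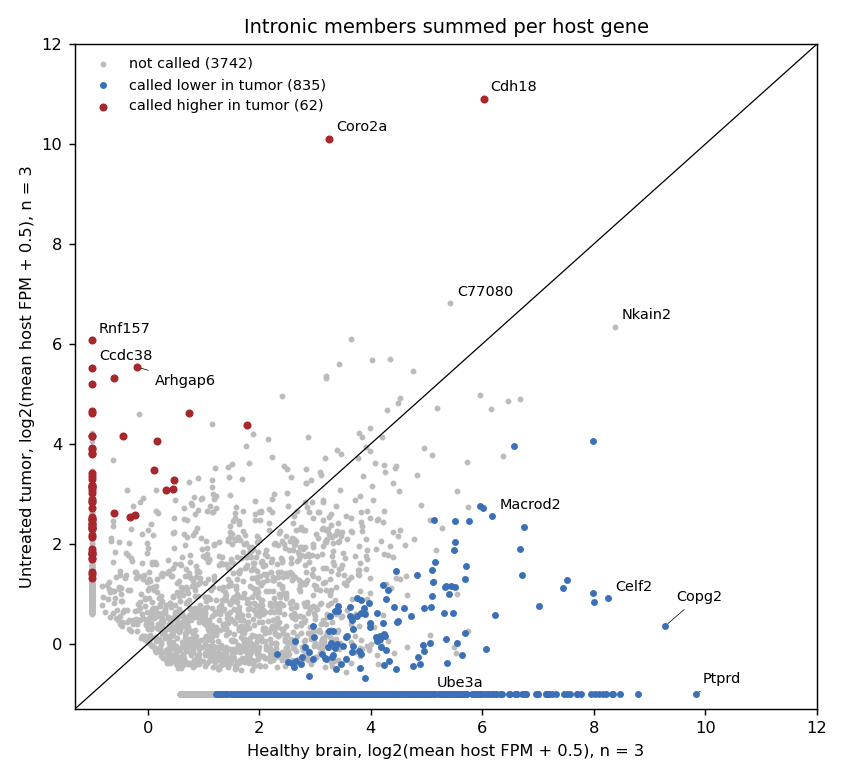
Summed level of intronic single-exon transcripts per host gene in healthy brain and untreated tumor, on the log2(FPM + 0.5) scale, with called hosts coloured by direction. Of 4639 hosts, 835 were called lower and 62 higher in tumor, and Ptprd lies at the floor of the tumor axis. The line marks equal levels.

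Of a list of 50 large neuronal genes for synaptic adhesion, channels and signalling, 49 were hosts and 48 were tested. None was called higher and 42 (87.5%) were called lower, with a median of -6.94 against -1.62 over all hosts, and 33 were listed at 0 in all untreated tumors. The list was drawn up with results of these data known and is no independent evidence of direction. All 48 had introns of at least 200 kb. Among the other 637 tested hosts with that much intron, 313 (49.1%) were called lower, and 423 were listed at 0 in all untreated tumors. Their median difference was -3.16, and their median brain level was 9.14 FPM against 92.3 FPM for the list. The list's count ran from 37 to 46 lower over the alternatives and leave-outs. The exons of the listed genes were lower too, by a median of -6.76.

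Over all hosts the share called lower rose with intron length, from 5.30% under 20 kb to 51.8% (355 of 685) at 200 kb or more. Of the 835 hosts called lower, 709 were listed at 0 in all 3 untreated tumors and 169 in all 12 tumor libraries, and 617 were present in replicate 3 at 50 µg. Of all 8953 hosts, 2312 were seen in untreated tumor and 5435 in that replicate. The same shares were not counted over the 4639 tested hosts. Markers of cell types, summed over annotated exons, moved in the same comparison. The 16 neuron markers summed to 11109 to 13785 FPM in brain and 191 to 271 FPM in untreated tumor, with 1 of 16 listed at 0 in all untreated tumors. Oligodendrocyte markers went from 4944 to 5662 FPM in brain to 656 to 933 FPM, astrocyte markers from 4522 to 5593 FPM to 706 to 917 FPM, macrophage markers from 64.8 to 88.0 FPM to 2342 to 3364 FPM and markers of dividing cells from 41.2 to 68.7 FPM to 1949 to 3141 FPM. Their part in the host differences was not tested.

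At the level of single loci the test had little reach. Of 18541 loci tested between brain and untreated tumor, 4 were called (0.0216%), 3 higher (0.0162%) and 1 lower (0.00539%) in tumor, while 1566 had an unadjusted limma p under 0.05. After quantile normalization the calls were 170 higher and 1 lower. Most loci tested were present in few libraries. Restricted to the 2835 assembled in at least 3 of the 6 libraries, a filter added after the data were seen, the same test called 2052 (72.4%), 160 higher (5.64%) and 1892 lower (66.7%). A locus seen in every library of a group and absent from the other passes such a filter only through the group where it is high, so these counts are a description and no test, and no p is given for the loci named under it.

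The highest locus overall lay in an intron of Def8 that is also inside the model of Gm20388, at chr8:123425792-123434604, 8813 bp long. It stood at 4.37, 4.10 and 3.88 FPKM in brain and 606, 1055 and 1076 FPKM in untreated tumor (7.58 ± 0.60 on the log2(FPKM + 0.5) scale, limma adjusted p = 0.0338), and at 907 to 1918 FPKM in the treated tumors. The groups were far apart, and the locus was present in all 15 libraries. By itself it made up 41.7%, 50.5% and 52.1% of all intronic FPM in the untreated tumors and up to 77.4% in a 200 µg library, against 0.0641% to 0.165% in brain. The exons of Def8 were at 36.7, 37.5 and 17.7 FPM in brain and 39.5, 39.8 and 30.2 FPM in untreated tumor, with overlap. Those of Gm20388 were at 70.5, 70.2 and 36.3 FPM in brain and 184, 146 and 138 FPM in untreated tumor, with none. Repeats and proviruses were not annotated here, and whether the locus is one was not tested.

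A pair of loci in a 487 kb intron of Cdh18, a neuronal cadherin, had a like pattern. The first, chr15:22751461-22753988, 36631 bp from the nearest exon, was at 1.50, 1.30 and 1.14 FPKM in brain and 388, 401 and 351 FPKM in untreated tumor (7.71 ± 0.56, limma adjusted p = 0.0338). The second, chr15:22754070-22761962, was at 0.604, 0.549 and 0.318 FPKM against 174, 42.6 and 138 FPKM (6.69, limma adjusted p = 0.0786, not called). Both were assembled in all 15 libraries. Exons of Cdh18 showed no such gap, with 16.6, 12.1 and 9.15 FPM in brain and 13.3, 29.3 and 8.38 FPM in untreated tumor.

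The locus called lower lay in Copg2, which encodes a coatomer subunit, at chr6:30802813-30808837. It stood at 95.0, 112 and 98.9 FPKM in brain, at 0.390, 0 and 0 FPKM in untreated tumor (-7.40 ± 0.60, limma adjusted p = 0.0338) and among the treated tumors only in replicate 2 at 100 µg, at 0.994 FPKM. Copg2 exons were at 62.8, 58.5 and 81.5 FPM in brain and at 45.2, 48.3 and 48.3 FPM in untreated tumor, lower there without overlap but by far less than the locus. Copg2 ends against the imprinted gene Mest on the other strand, and a long form of Mest is known to run antisense over Copg2 in neural tissue. Strand was not used here, so the locus was not assigned to either gene.

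The fourth called locus, chr3:127479840-127480156, was a 317 bp piece 23 bp from an exon of Ank2, an adaptor between membrane proteins and spectrin. It was listed at 0 in all brain libraries and stood at 41.8, 52.3 and 47.8 FPKM in untreated tumor (6.57 ± 0.56, limma adjusted p = 0.0369). The other members of Ank2 went the other way, since the gene as a whole was called lower in tumor (-2.58, limma adjusted p = 0.0322). Each of the 4 locus calls was lost with a pseudocount of 0.1, with depth as a covariate and when any library but brain replicate 1 was left out.

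Among loci in at least 3 of the 6 libraries, several were seen in every tumor and in no brain library. In Rnf157, a RING-type ubiquitin ligase of neurons, chr11:116389406-116391856 was listed at 0 in brain and stood at 21.1, 22.1 and 26.8 FPKM in untreated tumor. In the Fgfr2 model the locus that ends just before the Abraxas2 start, in the window printed above, chr7:132857948-132859171, was listed at 0 in brain and stood at 4.41, 62.2 and 55.0 FPKM. In Ccdc38, a coiled-coil protein gene, chr10:93557931-93558382 was listed at 0 in brain and stood at 41.0, 153 and 108 FPKM. These 3 loci were among those present in all 12 tumors.

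Loci lower in tumor under that filter included pieces of 3 synaptic genes. In Gabrb1, a GABA-A receptor subunit, chr5:72049421-72049840 was at 28.4, 30.6 and 10.7 FPKM in brain. In Ptprd the leading piece, chr4:76961765-76962146, was at 25.6, 22.8 and 12.7 FPKM, and in Shank1, a postsynaptic scaffold, chr7:44334097-44334641, which lies 38 bp from an exon, was at 13.7, 15.6 and 5.10 FPKM. All 3 were listed at 0 in every tumor library.

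In Ube3a, a ubiquitin ligase whose paternal copy is silent in neurons, chr7:59290215-59291865 was at 11.6, 8.38 and 9.69 FPKM in brain and listed at 0 in all 12 tumors. RefSeq places the long noncoding RNA Snhg14, which runs antisense over Ube3a, across this locus and across 4 of the other 5 in the gene. As strand was not used, these loci were not assigned to Ube3a or to Snhg14.

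**Figure D4:**
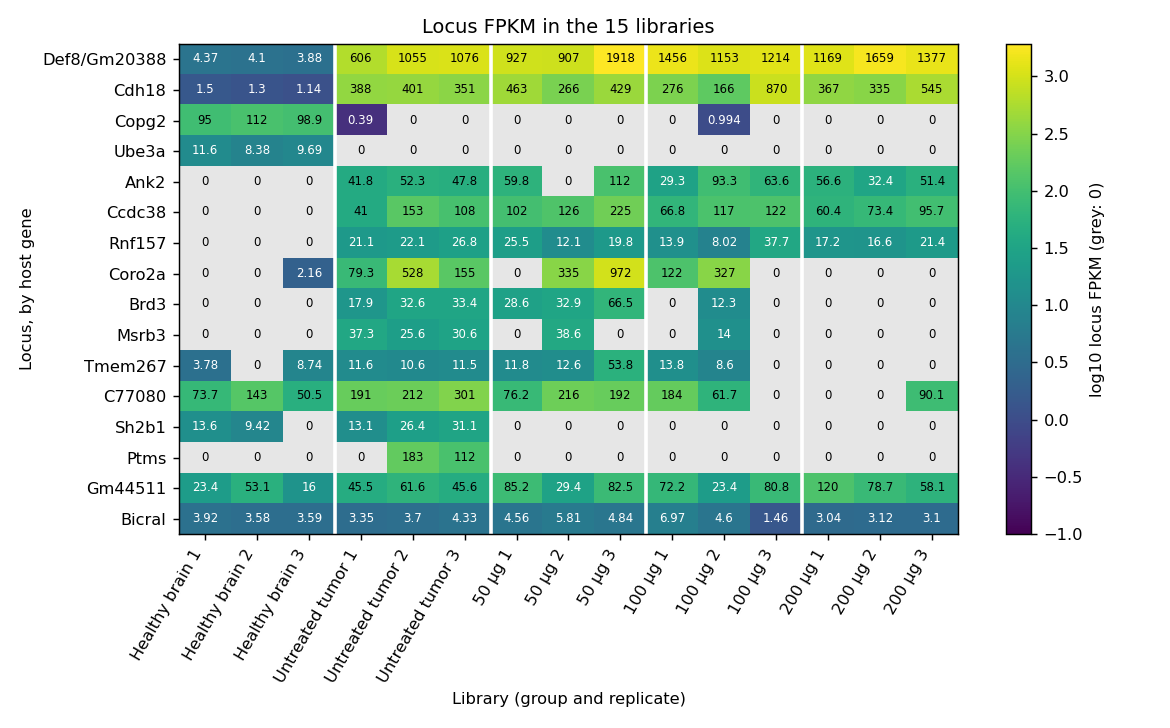
Level of named intronic loci in each of the 15 libraries, coloured on a log10 FPKM scale with grey for 0, with 1 row a locus, 1 column a library and the FPKM written in each cell. The Def8 and Cdh18 loci are high in all 12 tumors and low in brain, and the Copg2 locus is at 95.0 to 112 FPKM in brain and at 0 in most tumors.

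Only 62 hosts were called higher in tumor, and 47 of them were listed at 0 in all brain libraries. The share at 0 in brain among all tested hosts was not counted. Cdh18 summed to 80.0, 57.4 and 55.9 FPM in brain and 2370, 1406 and 1990 FPM in untreated tumor (4.87, limma adjusted p = 0.00303). Rnf157 was listed at 0 in brain and at 54.4, 79.8 and 66.7 FPM in untreated tumor (7.06, limma adjusted p = 0.000760). Coro2a, an actin-binding coronin, was at 5.80, 3.30 and 18.02 FPM in brain and at 187, 2482 and 641 FPM in tumor (6.45, limma adjusted p = 0.00796). Its brain and tumor values did not overlap, but the tumors spanned more than a factor of 10.

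The other large rises started from values at or near 0 in brain. Tex14, which is needed for the bridges between male germ cells, was listed at 0 in brain and at 26.8, 18.1 and 26.8 FPM in untreated tumor (limma adjusted p = 0.00162), and Tmem232 at 0 and 21.1, 25.1 and 28.2 FPM (limma adjusted p = 0.00154). Amhr2, the receptor for anti-Müllerian hormone, went from 0, 0 and 0.47 FPM to 5.19, 51.8 and 61.3 FPM (5.40, limma adjusted p = 0.0124). Arhgap6 went from 0, 1.14 and 0 FPM to 33.0, 41.2 and 63.4 FPM (5.91, limma adjusted p = 0.00272).

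Members were then set against the annotated exons of the same host. Of the 835 hosts called lower, exons were lower in 642, by more than 1 log2 unit in 500, and 335 had exons that were not lower by that much. The median difference of these hosts was -3.87 for members and -1.85 for exons. Of the 62 called higher, exons were higher in 40 and lower in 19. Over all 4639 tested hosts, exons were lower in 2536, by more than 1 log2 unit in 1584, and higher in 2079. In 3055 of them exons were not lower by that much. The median over all 4639 was -1.62 for members and -0.19 for exons. Pearson's r between the differences was 0.428 across hosts, which share libraries and are not independent.

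The member difference minus the exon difference, in log2 units, was tested in the same way and was called for 885 hosts (19.1%), with 303 higher (6.53%) and 582 lower (12.5%). This count rests heavily on single libraries. It was 172, 23 and 71 without untreated replicate 1, 2 and 3, and 424 without brain replicate 2. Where members are listed at 0 in all untreated tumors, the pseudocount limits how far they can fall. A larger fall of the exons can then give a call higher although members did not rise. Camk2a was called higher (5.84, limma adjusted p = 0.0288) with members at 32.0, 0 and 0 FPM in brain and at 0 in untreated tumor. Its difference was -2.01 for members and -7.84 for exons. How many of the 303 are of this kind was not counted.

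Some hosts had lower exon values and higher member values in tumor. Rnf157 exons went from 286, 254 and 202 FPM to 3.73, 21.0 and 10.9 FPM while its members went up from 0 (members minus exons 11.66, limma adjusted p = 0.000696). Rab6b, a Golgi GTPase of neurons, had exons at 819, 815 and 851 FPM in brain and 21.0, 15.5 and 14.5 FPM in untreated tumor, with members at 0 in brain and 3.14, 18.01 and 8.10 FPM in tumor (9.64, limma adjusted p = 0.00293). For Klc1, a kinesin light chain, exons went from 591, 479 and 338 FPM to 62.5, 0.06 and 56.0 FPM (9.71, limma adjusted p = 0.0108), and 1 untreated library was near 0 unlike the other two.

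Other hosts had exon values as high or higher in tumor and members listed at 0. Ube3a members were at 27.3, 35.9 and 34.8 FPM in brain and at 0 in untreated tumor, while its exons were at 12.9, 7.08 and 0.549 FPM in brain and 138, 88.2 and 104 FPM in tumor (-10.56, limma adjusted p = 0.00377). Rora, a nuclear receptor, had members at 134, 103 and 76.9 FPM against 0, and exons at 71.0, 71.4 and 82.0 FPM against 97.8, 145 and 142 FPM (-8.43, limma adjusted p = 0.00293). Tcf12, a helix-loop-helix factor, had members at 35.7, 7.30 and 3.81 FPM against 0, and exons at 48.9, 38.6 and 46.0 FPM against 580, 582 and 354 FPM (-7.88, limma adjusted p = 0.00500).

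**Figure D5:**
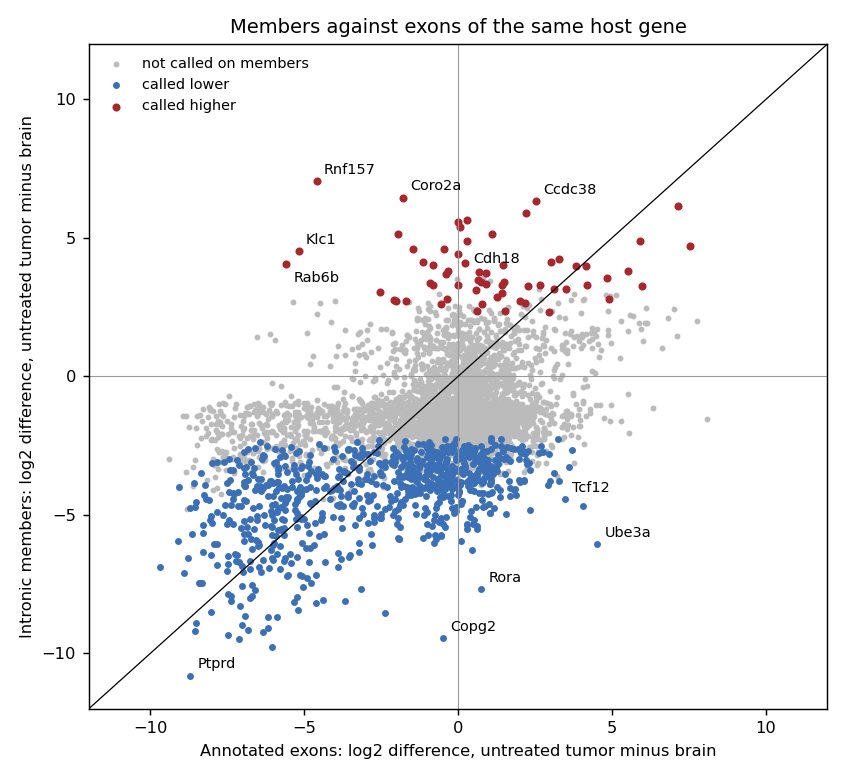
Difference between untreated tumor and brain in the intronic members of each host (vertical) against the difference in its annotated exons (horizontal), both in log2(FPM + 0.5). The line marks equal differences. Rnf157 and Rab6b lie high on the left, with exons lower and members higher in tumor, while Ube3a, Tcf12 and Rora lie low on the right.

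Lists of other genes had few hosts and few calls. Of 6 tested astrocyte markers 4 were called lower, with a median of -3.50. Ntm, a neural adhesion protein, was at 58.2, 48.4 and 47.9 FPM in brain and at 0 in untreated tumor, and the proteoglycan Gpc5 and the phagocytic receptor Mertk were called with it. Slc1a3 of the same list went the other way without a call. It was listed at 0 in brain and at 0, 2.72 and 4.71 FPM in untreated tumor (2.02, limma adjusted p = 0.200). Of 6 oligodendrocyte genes 2 were called lower, the transcription factor St18 and the exchange factor Dock10, with a median of -2.92. None of 5 neuron markers was called (median -2.01), nor the 1 microglia, 2 macrophage (median -2.58) or 4 VEGF-axis genes (median -1.31) tested.

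The endothelial list had 4 tested hosts and a median of -3.08. Tek, the angiopoietin receptor, was the only one called, at 33.1, 6.24 and 8.47 FPM in brain against 0 (limma adjusted p = 0.0085), while endothelial exon markers summed to 318 to 352 FPM in brain and 276 to 405 FPM in untreated tumor. The matrix list had 1 call of 4 (median -1.66): Lamb1, a laminin chain, at 2.87, 3.08 and 2.71 FPM against 0 (limma adjusted p = 0.0229), although its exons were higher in tumor by 2.06 log2 units. Of 18 tested chromatin genes 2 were called lower (median -1.58), the remodeller Chd9 (55.6, 49.2 and 29.6 FPM against 2.78, 0 and 2.27 FPM; limma adjusted p = 0.0123) and the acetyltransferase Crebbp. Of 12 splicing factors 1 was called lower (median -1.53), the RNA-binding protein Celf1.

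The interferon list alone held a host called higher. Trim30a, an interferon-induced ubiquitin ligase, was listed at 0 in brain and stood at 1.61, 10.9 and 7.78 FPM in untreated tumor (limma adjusted p = 0.0244), and the median of the 4 tested was 0.45. No gene of the proliferation list had enough intronic signal to be tested. Each of these counts stands beside the 18% of all tested hosts called lower and the 1.34% called higher. No list was tested against the other hosts.

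Of the 18 loci present in all 15 libraries, 17 were at least 1 kb long. Untreated tumor lay above all brain libraries at 5 of them, below at 6 and overlapped brain at 7. The share without overlap among all tested loci was not counted, so these counts are a description only. In Bicral, a chromatin remodelling subunit, chr17:46851302-46858093 was at 3.92, 3.58 and 3.59 FPKM in brain and 3.35, 3.70 and 4.33 FPKM in untreated tumor. In Glb1, lysosomal beta-galactosidase, chr9:114407556-114411204 was at 4.08, 3.72 and 3.98 FPKM in brain and 3.07, 4.36 and 4.74 FPKM in untreated tumor. Both sets overlapped. In Snx12, a sorting nexin, the values were 3.19, 3.00 and 3.26 FPKM in brain and 1.52, 0.793 and 0.663 FPKM in untreated tumor, and in Nrg3, a neuregulin of neurons, they were 2.20, 2.19 and 3.07 FPKM and 0.211, 0.686 and 0.565 FPKM, with no overlap in either.

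A set of 58 loci was assembled in all 12 tumor libraries, and 24 of them in no brain library. Beside Rnf157, Ccdc38 and Fgfr2 these included loci in Scarb2, a lysosomal membrane protein, Apbb2, an adaptor of the amyloid precursor protein, and a pair in Cntn6, a neural contactin. The Apbb2 locus, chr5:66385518-66387966, was at 4.52, 4.71 and 5.56 FPKM in untreated tumor.

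The question for the antibody groups was whether intronic members changed with dose. Very few loci were called, which does not show that the others were unchanged. Of 12100 loci tested over the 12 tumor libraries, 7 were called at 200 µg (0.0579%), all lower than in untreated tumor, 2 at 50 µg (0.0165%) and 2 at 100 µg (0.0165%), also lower, and 4 fell along the dose trend (0.0331%). Unadjusted limma p-values under 0.05 numbered 177 at 200 µg, 682 at 50 µg, 199 at 100 µg and 151 for the trend. The median difference over all tested loci was 1.07 at 50 µg, where replicate 3 had so many members, and 0 at the other doses. Many loci reached the mean level needed for testing only through that library. Without it 4362 loci were tested and the median at 50 µg was 0, so the shares called and the medians depend on it. Quantile normalization gave 8 higher and 14 lower loci at 200 µg. The dose comparisons share the untreated libraries, so their calls are not separate evidence.

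Sh2b1, a signalling adaptor, was called at all 3 doses. Its 358 bp locus, chr7:126468058-126468415, lies 5 bp from an exon in an intron of 0.37 kb. It was at 13.1, 26.4 and 31.1 FPKM in untreated tumor, listed at 0 in all 9 treated libraries, and at 13.6, 9.42 and 0 FPKM in brain (limma adjusted p = 0.000155 at 50 µg and at 100 µg, 0.000143 at 200 µg). A 237 bp piece in Ptms, parathymosin, at 0, 183 and 112 FPKM in untreated tumor, was listed at 0 in the treated tumors and was also called at each dose, although 1 untreated tumor was at 0 as well (limma adjusted p = 0.0170, 0.0170 and 0.00565). The 12 tumor libraries shared 1 estimate of spread, to which treated libraries at 0 add none. Here and at the loci below, the p-values therefore do not measure the spread among the untreated tumors alone.

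The first Coro2a locus, chr4:46576154-46577941, went from 79.3, 528 and 155 FPKM in untreated tumor to 0, 335 and 972 FPKM at 50 µg, 122, 327 and 0 FPKM at 100 µg and 0 in all 3 libraries at 200 µg (limma adjusted p = 0.000143 at 200 µg). A second Coro2a locus summed to 45.5, 1538 and 364 FPM in untreated tumor and to 0, 0 and 880 FPM at 200 µg. Coro2a as a host was not called at 200 µg (-6.79, limma adjusted p = 0.0637). Brd3, a bromodomain reader of acetylated histones, had a 354 bp locus, chr2:27490251-27490604, at 17.9, 32.6 and 33.4 FPKM untreated, 28.6, 32.9 and 66.5 FPKM at 50 µg, 0, 12.3 and 0 FPKM at 100 µg and 0 in all 3 libraries at 200 µg (limma adjusted p = 0.000143 at 200 µg). The 50 µg tumors thus overlapped the untreated ones at the first Coro2a locus and at the Brd3 locus.

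The rest of the 200 µg calls had the same form. Msrb3, a methionine sulfoxide reductase, fell from 37.3, 25.6 and 30.6 FPKM to 0 (limma adjusted p = 0.000974), Tmem267 from 11.6, 10.6 and 11.5 FPKM to 0 (limma adjusted p = 0.0123) and C77080 from 191, 212 and 301 FPKM to 0, 0 and 90.1 FPKM (limma adjusted p = 0.00404). Along the trend, Brd3 fell by 3.31 log2 units per 100 µg, the first Coro2a locus by 4.25, C77080 by 3.36 and Tmem267 by 2.57 (limma adjusted p = 0.00143, 0.0180, 0.0419 and 0.0180).

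Of the 7 loci called at 200 µg, 6 were listed at 0 in all 200 µg libraries, 7 were also at 0 in replicate 3 at 100 µg, and 5 were under 500 bp. Of all 42794 loci, 1884 were seen in any 200 µg library and 576 in that replicate, so a 0 there was common. How many of the 12100 tested loci had these traits was not counted. The 200 µg libraries and that replicate also had the fewest members and the fewest short pieces, 5.24% to 7.36% under 500 bp. By its agent entry that replicate had 200 µg. Grouped by the agent entry, no locus was called at 50 or 200 µg, and 2 were called at 100 µg, both higher than in untreated tumor. The part of piece length in these calls was not tested. The count was 1 without replicate 3 at 50 µg, 3 without replicate 3 at 100 µg and 14 without replicate 1 at 100 µg.

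At the level of hosts, 2 of 3615 were called at 200 µg (0.0553%), both lower, with 177 at an unadjusted limma p under 0.05. Quantile normalization gave 16 higher and 14 lower. Without replicate 3 at 50 µg, 1952 hosts reached the level needed for testing and 9 were called, 1 higher and 8 lower. C130026I21Rik was at 34.3, 26.0 and 48.5 FPM in untreated tumor, 19.3 to 29.6 FPM at 50 µg, 19.1 to 30.6 FPM at 100 µg and 0 in all 3 libraries at 200 µg (-6.15 ± 1.07, limma adjusted p = 0.00200). It was listed at 0 in brain, where untreated tumor was called higher (limma adjusted p = 0.00119). Farp2 went from 42.8, 17.96 and 57.6 FPM to 0 at 200 µg (-6.17, limma adjusted p = 0.0494), and it was also at 0 in replicate 1 at 50 µg and in replicates 1 and 3 at 100 µg. The Farp2 call was lost in 17 of 22 alternatives. Grouped by the agent entry, no host was called at 200 µg. None of the listed genes, synaptic or vascular, was called at 200 µg.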

How the data were processed

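Total RNA from 15 mouse samples was made into libraries with a NEBNext Ultra kit, per the labels' protocols. STAR alignment to mm10 and assembly with Cufflinks are named by the submitters' processing notes. Their versions are not given in the sources used here. For every library the authors deposited 1 assembly, in a text format whose attribute column gives FPKM and coverage for each transcript. An exact 0 means that nothing was assembled, which can be a failed assembly.

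Members were overlapped with gene models by bedtools 2.31.1 and Python 3.11.15 (pandas 2.3.3), without strand. Locus FPKM was the sum of FPKM times length over the length of the merged locus. Host FPM was the sum of FPKM times kb. Tests used limma 3.58.1 in R 4.3.3 on log2(value + 0.5), over loci with a mean of at least 0.25 FPKM or hosts of at least 0.5 FPM, with Benjamini-Hochberg adjustment and calls at 0.05. Brain and untreated tumor were fitted alone, and the 12 tumor libraries together. Library measures were compared by exact two-sided permutation. The test was tried on simulated data with known changes. Those were normal draws without the many exact 0 values seen here, so the trial does not cover calls where a group is at 0.

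Named items were the largest called changes in each direction, the hosts with most loci or highest level, the smallest p-values of each dose comparison, and listed genes. The promoters and the examples among loci in all libraries were picked after their values were seen. Members and lists were chosen with earlier results of these data known. Repeats in the genome were not annotated, and no genome sequence was used here.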

Additional observations from a re-analysis of the deposited data

How the results depend on the processing

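Locus counts are small and moved with most settings. Brain against untreated tumor had 4 calls. It had 0 with a pseudocount of 0.1, with a 4 times stricter filter, by the agent entry or with depth as a covariate, 9 with a pseudocount of 1, 26 without a filter, 171 (170 higher) after quantile normalization, 218 (28 higher) with members of 500 bp or more, 7 with the replicate block and 2052 in loci of at least 3 libraries. Leaving out a library gave 0 to 951, the highest without brain replicate 1.

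At 50 µg, against 2 calls, there were 1 (pseudocount 1, no filter, 3 libraries), 0 (stricter filter, agent entry), 10 (quantile), 4 (500 bp, all higher), 4 (depth, 2 higher) and 9 (replicate block, 5 higher), with 1 to 8 over leave-outs, where 5 of 6 were higher without replicate 1 at 50 µg and 6 of 8 without replicate 2. At 100 µg, against 2, there were 1 (pseudocount 1, no filter, 500 bp, 3 libraries), 0 (stricter filter, depth), 8 (quantile), 6 (replicate block) and 2 by the agent entry, which were both higher where the 2 calls by title were lower. Leave-outs gave 1 to 5, with 4 of 5 higher without replicate 3 at 100 µg. At 200 µg, against 7, there were 2 (pseudocount 1), 1 (no filter, depth, 3 libraries), 22 (quantile, 8 higher), 14 (replicate block, 2 higher) and 0 (agent entry), with 1 to 14 over leave-outs. The trend, against 4, had 11 (pseudocount 0.1), 0 (pseudocount 1, no filter, quantile, depth, 3 libraries), 2 (stricter filter), 12 (replicate block) and 8 (agent entry), with 0 to 6 over leave-outs.

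Host calls in brain against untreated tumor, 897, became 503 (quantile), 286 (agent entry, which here only drops untreated replicate 3) and 1469 (depth), 758 with the replicate block, and 280 to 1600 over leave-outs. Hosts at 200 µg, against 2, had 1 (either pseudocount, stricter filter), 30 (quantile), 5 (replicate block) and 0 (agent entry, depth), with 0 to 10 over leave-outs. Members minus exons, against 885, gave 1632 (no filter), 410 (stricter filter), 1475 (quantile, 611 higher) and 71 (agent entry), with 23 to 1068 over leave-outs. The cause of these moves was not tested.

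Of 1123 alternative values for 63 named results, 898 kept their direction and side of the threshold, 185 lost the call, 39 gained it and 1 turned: the Coro2a host at 200 µg went from -6.79 to 0.40 with depth as a covariate. Covered length kept its direction and its side of an unadjusted permutation p of 0.05 under the alternatives run. With 3 against 3 libraries p cannot go below 0.1, so for those comparisons that side was fixed in advance. No comparison of covered length had an adjusted p under 0.05. Replicate numbers were not taken as pairs. In no comparison reported did all same-numbered libraries deviate together at a correlation over 0.1, although at loci those of the 50 and 100 µg groups, which were not compared, did so at 0.143, 0.154 and 0.313.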
